A study of Homo sapiens with 4 samples.

Results

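A549 cells growing as tumors in mice were compared with A549 cells growing as 3D cultures, and the genes described are those on which both tumor libraries lay on the same side of both culture libraries. A549 is an established human lung adenocarcinoma line. The solid tumor library and the acinar tumor library came from xenografts in immunodeficient mice, where tumor cells growing as sheets (solid) or as gland-like structures (acinar) were cut out with a laser. Both culture libraries came from GFP-labelled A549 cells sorted out of 3D colonies. The single culture held no cancer-associated fibroblasts (CAFs, the stromal fibroblasts found in tumors), and the mix culture was taken to be the coculture, since its label says no more than mix. The labels used here do not name the mouse strain, the implantation site, the number of animals or tumors, or the time in culture. Each of the 4 groups is 1 library, so differences have no replicate check and p-values are left out. Growth setting, microdissection against sorting, and sequencing depth differed together and cannot be told apart.

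Of the 26255 genes in the deposited table, 14561 reached 1 scaled count in at least 1 of the 4 libraries and were compared. A scaled count is a gene's fragment count, scaled between libraries by the authors and then divided by 1 constant common to all libraries, so that values come near the CPM scale. It is not divided by transcript length, so one gene is not to be ranked against another by level. Each gene has 4 tumor-to-culture ratios, and the smallest of them was used, as log2 with 1 added to both values. A gene is called higher or lower below when that smallest ratio passed 2-fold. On this rule 1408 genes (9.67% of those compared) were higher in both tumors and 1197 (8.22%) were lower. The shares of gene lists given below are to be read against these percentages. At 4-fold the counts were 390 (2.68%) and 279 (1.92%), and at 10-fold 130 and 37. Values of a gene are given in the order solid tumor, acinar tumor, single culture, mix culture. The fold printed is the plain ratio of the closest tumor and culture libraries. Its 95% exact binomial interval covers counting error alone, since each group is 1 library. Fragments that carry no molecular identifier are not independent molecules, so the interval can be too narrow even for that. It also leaves out that the closest pair was picked by its values.

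Cells of glandular epithelium are held together by tight junctions and desmosomes, carry keratin filaments, and coat their free surface with mucins and with glycoproteins of the carcinoembryonic antigen family. Cells that pass through mitosis switch on a shared set of genes late in the cycle, many of them through a CHR element next to CCAAT boxes that bind the factor NF-Y. Epithelial cells rest on a basement membrane of laminins and type IV collagen, which they bind through integrins, while the growth factor TGF-β is known to shift such cells towards a mesenchymal state.

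The promoters of 4 mitotic genes that were lower in both tumors show that arrangement. The 200 bases before the gene start are shown 5′ to 3′ on the gene's strand, from RefSeq (GRCh38.p14), with the CHR element TTTGAA and the CCAAT box in capitals on either strand (TTCAAA and ATTGG on the reverse). CCNB1, a mitotic cyclin that was also lower, is shown beside them because its 200 bases hold CCAAT boxes and no TTTGAA.
CDC20 (chr1:43358781-43358980, plus strand): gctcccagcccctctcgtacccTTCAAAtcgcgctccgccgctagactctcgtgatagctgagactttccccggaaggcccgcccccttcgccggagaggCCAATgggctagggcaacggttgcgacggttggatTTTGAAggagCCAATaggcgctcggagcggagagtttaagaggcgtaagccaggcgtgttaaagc
MKI67 (chr10:128126424-128126623, minus strand): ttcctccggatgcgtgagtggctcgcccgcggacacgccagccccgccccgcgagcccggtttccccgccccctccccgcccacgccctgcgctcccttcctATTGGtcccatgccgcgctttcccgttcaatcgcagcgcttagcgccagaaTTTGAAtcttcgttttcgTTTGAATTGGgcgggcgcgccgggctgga
PLK1 (chr16:23678689-23678888, plus strand): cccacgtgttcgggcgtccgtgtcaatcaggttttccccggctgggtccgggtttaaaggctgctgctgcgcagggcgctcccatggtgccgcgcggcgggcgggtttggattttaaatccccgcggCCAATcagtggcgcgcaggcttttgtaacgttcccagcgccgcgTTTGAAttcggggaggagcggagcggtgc
CCNB2 (chr15:59104946-59105145, plus strand): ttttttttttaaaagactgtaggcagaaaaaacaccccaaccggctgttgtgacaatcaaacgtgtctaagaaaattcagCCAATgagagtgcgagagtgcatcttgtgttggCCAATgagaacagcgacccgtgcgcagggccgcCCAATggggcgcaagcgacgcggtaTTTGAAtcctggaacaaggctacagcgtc
CCNB1 (chr5:69166950-69167149, plus strand): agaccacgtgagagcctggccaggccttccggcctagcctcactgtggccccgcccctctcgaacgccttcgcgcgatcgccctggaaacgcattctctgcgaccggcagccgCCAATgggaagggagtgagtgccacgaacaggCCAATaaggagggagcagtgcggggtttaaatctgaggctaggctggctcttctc
The CHR element nearest the start began 65 bases before it in CDC20 and 29 bases before it in MKI67, PLK1 and CCNB2. Over 250 bases upstream and both strands, TTTGAA was in 14 of the 28 promoters matched for the 34 mitotic genes (50%). It was in 13.6% of all 27305 promoters in the table and in 8.56% of the 11373 matched promoters of genes compared here. CCAAT was in 22 of the 28 (78.6%), against 33.0% of all promoters and 34.7% of those of genes compared, and both motifs together were in 12 (42.9%), against 4.85% of all promoters. Among all called genes, TTTGAA was in 13.7% of the matched promoters of genes lower in the tumors and in 7.21% of those of genes higher in them. A match is a description of letters and not evidence of a bound site.

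The same window is shown for CEACAM5 and CEACAM6, neighbouring genes of the carcinoembryonic antigen family that were both far higher in the tumors. CACGTG, an E-box, is in capitals.
CEACAM5 (chr19:41708426-41708625, plus strand): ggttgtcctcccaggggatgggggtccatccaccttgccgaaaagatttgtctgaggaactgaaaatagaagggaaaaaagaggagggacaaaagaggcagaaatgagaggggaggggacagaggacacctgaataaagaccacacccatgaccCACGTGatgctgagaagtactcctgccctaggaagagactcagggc
CEACAM6 (chr19:41755330-41755529, plus strand): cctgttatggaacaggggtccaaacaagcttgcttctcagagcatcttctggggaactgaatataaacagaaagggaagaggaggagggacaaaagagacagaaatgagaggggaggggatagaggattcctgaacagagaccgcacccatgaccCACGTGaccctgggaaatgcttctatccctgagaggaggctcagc
Aligned, 153 of 209 columns were identical (73.2%), and the E-box began 46 and 45 bases before the start. CACGTG was in 6.49% of all promoters over 250 bases and both strands, in 8.74% of the matched promoters of genes compared here, and in 8.09% and 9.08% of those of genes higher and lower in the tumors.

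Estimated depth was 7270000 (solid) and 6630000 (acinar) fragments for the tumors, and 10970000 (single) and 12180000 (mix) for the cultures, which leaves the tumors with the larger counting error. A limit of 3 fragments per library corresponded to 0.420, 0.465, 0.267 and 0.242 scaled counts. All 20 A549 markers were measured in every library. Of them 7 (35%) were higher in the tumors, against 9.67% of all genes, and none lower. Markers of endothelium summed to 4.195, 17.2, 3.82 and 2.42 scaled counts over 14 genes, with PLVAP, at 0, 13.02, 0 and 0, and ENG, at 1.82, 2.02, 1.78 and 0.805, as the largest parts of the acinar value. Erythroid markers summed to 0.420 or less. Of 22 fibroblast markers 13 were measured. MFAP5 and LUM were higher in the tumors (15.4%, against 9.67% of all genes). THY1, PDGFRA and FBLN1 were lower (23.1%, against 8.22%). The listed genes DCN, COL1A2, PDGFRB and POSTN were at 0.280 or less in all 4 libraries. Other listed genes were not, with MFAP5 at 225 and 563 and COL1A1 at 32.3 and 30.7 in the solid and acinar tumors. The fibroblast markers summed to 343, 771, 302 and 428. Leukocyte markers summed to 247, 151, 59.5 and 56.9. Of the 9 measured, 3 (33.3%) were higher: CD68 and LYZ, which made most of the tumor sums, and ITGAM, at 3.22, 4.03, 0.889 and 0.805; S100A9 was lower. PTPRC, the pan-leukocyte marker, was at 1.26, 1.395, 0.7999 and 0.644, and AIF1 at 0 throughout. The part that host or stromal RNA plays in the differences was not tested, and the labels do not say whether mouse reads were removed.

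Transcript length moved with the comparison. Here and below, the length of a gene is that of its longest annotated transcript, which need not be the one the cells express. In the 10% of genes with the shortest transcripts, up to 1530 bases, 17.1% were higher in the tumors and 2.33% lower. In the 10% with the longest transcripts the shares were 5.01% and 17.8%. The median longest transcript was 2994 bases for genes higher in the tumors, 4762.5 for genes lower in them and 3576 for all genes compared. The 715 long noncoding RNA genes had 15.1% higher and 2.66% lower. When the tumor values were divided by the median ratio of their length class (10 classes), 1143 of the 1408 higher and 970 of the 1197 lower genes were still past 2-fold, genes without a known length being left out. List medians with this length trend removed are given beside lists of short or long transcripts.

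**Figure D1:**
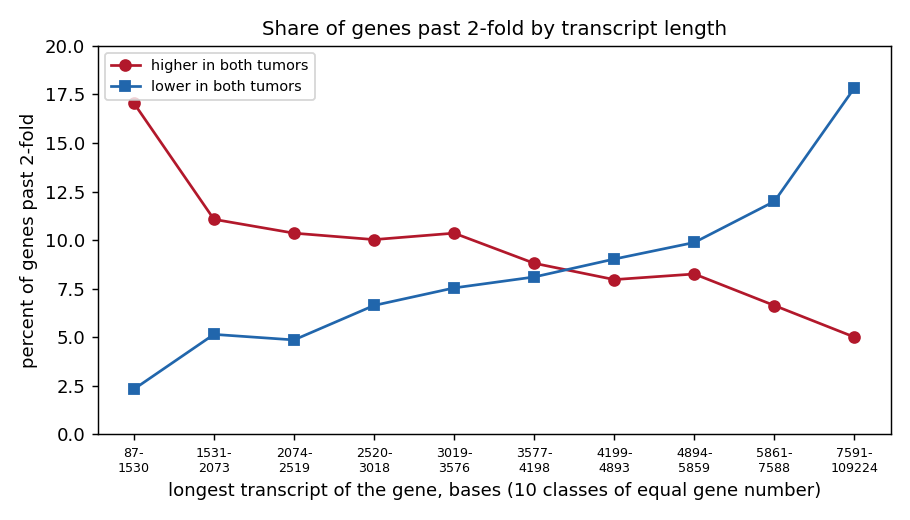
Percent of genes past 2-fold higher (red circles) or lower (blue squares) in both tumors, for 10 classes of the longest transcript of the gene in bases. The red line goes from 17.1% in the shortest class to 5.01% in the longest, and the blue line from 2.33% to 17.8%.

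The gap between the settings was wider than the gap within either. The median absolute log2 ratio was 0.21 for acinar against solid tumor and 0.19 for mix against single culture. It was 0.60 to 0.63 for the 4 tumor-to-culture pairs. Past 2-fold were 634 genes (4.35%) between acinar and solid tumor and 326 (2.24%) between mix and single culture, against 4136 to 4421 genes (28.4% to 30.4%) for the tumor-to-culture pairs. The within-setting ratios hold real differences between the groups as well as noise. The levels of 3132 genes (21.5%) overlapped between tumors and cultures, 5798 (39.8%) lay higher in both tumors by any amount and 5631 (38.7%) lower.

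**Figure D2:**
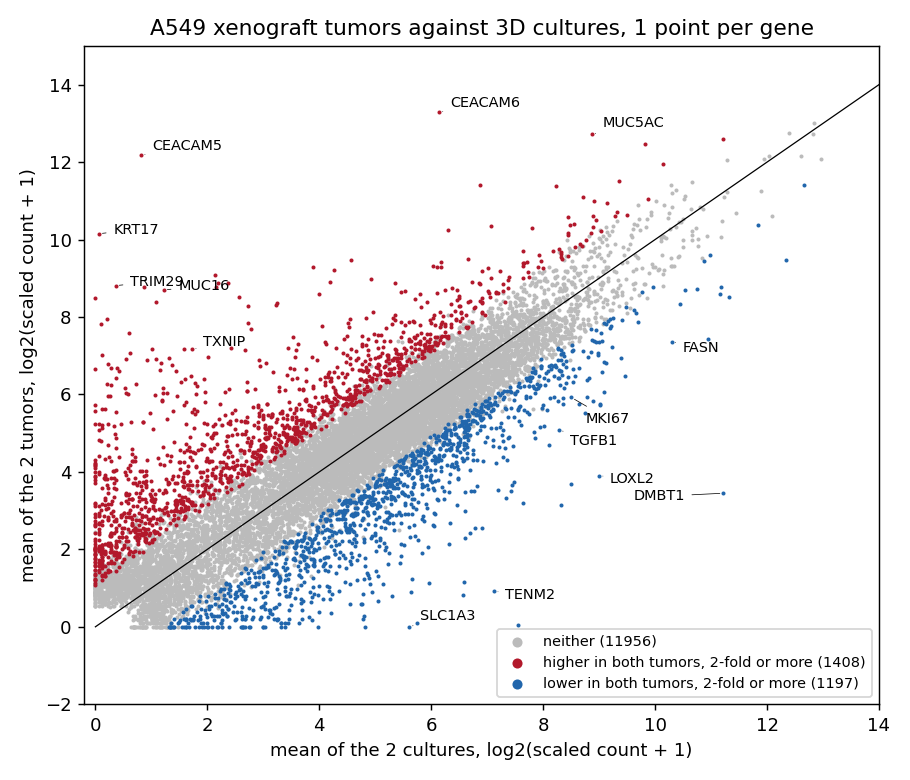
Mean of the 2 tumors against the mean of the 2 cultures for the 14561 genes compared, on a log2(scaled count + 1) scale, with genes past 2-fold in all 4 cross ratios in red (1408 higher) and blue (1197 lower). CEACAM5, KRT17 and TRIM29 lie far above the diagonal at culture values near 0, and DMBT1, LOXL2 and TENM2 far below it.

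Surface glycoproteins of glandular epithelium had some of the widest gaps. CEACAM5, the carcinoembryonic antigen itself, was at 4670.2, 4597, 1.51 and 0.242 scaled counts, a 3042-fold gap (interval 1899.8 to 5223). CEACAM6 was at 8586, 11712, 166 and 28.7, and its closest libraries differed 51.6-fold, with a fractional number of fragments and so without an interval. Both tumors were far above both cultures for each gene, and CEACAM5 was represented by 17 fragments in the single culture and fewer in the mix culture. Their promoters are the pair printed above. Fewer cells expressing a gene and less RNA per cell cannot be told apart in such bulk libraries.

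Mucins, the large glycoproteins of mucus and of the cell surface, were split by gene. Of the 26 genes measured for mucins and their glycosylation, 8 (30.8%) were higher and none lower, with a median mean log2 ratio of 0.83 against 0.02 over all genes. The membrane mucin MUC16, which carries the CA125 antigen, was at 376, 457, 3.11 and 0.322, 121-fold apart (86.6 to 174). MUC13, a membrane mucin of the gut, was at 407, 543, 4.62 and 3.78 (88.02-fold, 66.9 to 118), and MUC1 at 465, 472, 48.1 and 32.8 (9.66-fold, 8.82 to 10.6). For all 3, both tumors were above both cultures. MUC5AC, a secreted gel-forming mucin of airway and stomach, was at 10079, 4487, 544 and 401 (8.24-fold, 8.02 to 8.48), with the solid tumor well above the acinar. The other gel-forming airway mucin, MUC5B, was abundant everywhere, at 6966, 2993, 8878 and 4415, and its tumor and culture values overlapped. MUC12 and MUC3A, membrane mucins of the gut, were at 259.7, 427, 0.533 and 1.93 and at 99.01, 138, 0.889 and 0.886; MUC3A has a near-identical copy, MUC3B, so its fragments may be misassigned. GALNT12, which starts O-linked sugar chains, was higher too, at 116, 132, 10.9 and 10.7.

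Other genes known from epithelial or secretory cells are named here because they were among the widest gaps. TSPAN1, a tetraspanin of epithelial membranes, was at 493, 586, 5.24 and 2.09 (94.1-fold, 72.7 to 124). TRIM29, a TRIM protein of stratified epithelia, was at 376, 533, 0.178 and 0.403 (935-fold, 400.2 to 2882), close to absent from the cultures. EPS8L3, at 123, 118, 0.444 and 0.483, and MYO1D, an unconventional myosin, at 96.1, 156, 1.6 and 1.37, gave 245-fold and 60.1-fold gaps. AQP1, a water channel, was at 114, 316, 0.622 and 0.403, and VAMP8, a vesicle fusion protein of secretory cells, at 109, 131, 1.6 and 0.725. In each of these genes the lower tumor was 60.1 or more times the higher culture.

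Of 35 measured genes for epithelial junctions and polarity, 19 (54.3%) were higher in the tumors and none lower. Their median was 1.49, and 1.39 with the length trend removed. EPCAM, a homophilic adhesion molecule of epithelia, was at 20.3, 28.1, 2.31 and 2.09 (8.78-fold, 5.75 to 13.9). The tight junction genes CLDN4, CLDN7, CLDN2 and CGN gave gaps of 4.41, 5.38, 3.05 and 8.404-fold, and ESRP1, an epithelial splicing regulator, 9.59-fold from a low level (5.59, 3.41, 0.356 and 0.0805). ELF3, an epithelial transcription factor, was at 746, 687, 141 and 70.4, and PKP2 and DSC2 of the desmosome were higher 4.52-fold and 3.72-fold. Several members of the list did not pass 2-fold. CDH1, the E-cadherin of adherens junctions, was at 199, 204, 201 and 119.8, TJP1 at 159.6, 179.7, 182 and 189.7 and DSP at 215, 235, 286 and 241, so tumors and cultures overlapped or lay close.

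Keratins, the intermediate filaments of epithelium, followed 2 patterns. Of 17 measured, 8 (47.1%) were higher and none lower, with a median of 1.48. KRT17, a keratin of basal and stressed epithelium, was at 729, 1771, 0.0889 and 0. Its fold of 8199 rests on 1 fragment in the single culture, and the interval runs from 1471 to 323919. KRT6A, at 160.1, 316, 0 and 0.161, and KRT16, at 48.9, 116, 0.267 and 0.161, are keratins of activated stratified epithelium and were likewise near 0 in the cultures. KRT13 was at 14.1, 14.1, 0.178 and 0.0805 and KRT15 at 110.1, 70.4, 3.47 and 1.37. Keratin genes include near-identical copies, so fragments among KRT6A, KRT6B, KRT16 and KRT17 may be misassigned. The keratins of simple epithelium were present in all 4 libraries. KRT8 was at 4061, 4507, 2451 and 2543 and KRT18 at 3119, 2656, 1554 and 1671, both above the cultures but short of 2-fold, while KRT19 was at 607, 818, 33.4 and 15.1 (18.2-fold, 16.4 to 20.2) and KRT7 at 2232, 3780.3, 473 and 899 (2.48-fold). The basal keratins KRT5 and KRT14 stayed at 0.699, 0.6202, 0 and 0.161 and 0, 2.48, 0 and 0. TP63, a basal cell transcription factor, was higher at 12.2, 38.3, 2.31 and 1.69 (5.27-fold, 3.36 to 8.50).

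The S100 family of small calcium-binding proteins had 8 of 12 measured members higher (66.7%) and 1 lower. S100A14 was at 76.8, 48.4, 0.0889 and 0.242 (200.3-fold from 3 fragments in the mix culture, 67.9 to 976) and S100P at 541, 279, 15.02 and 14.98 (18.6-fold, 15.9 to 21.9). S100A4, S100A6, S100A11 and S100A10 were abundant in every library and gave gaps of 6.54, 5.08, 2.597 and 2.14-fold. S100A9 went the other way, at 1.82, 0.6202, 5.33 and 7.97. S100 transcripts are short, with a median of 1072 bases, and the list median of 1.81 became 1.34 with the length trend removed.

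**Figure D3:**
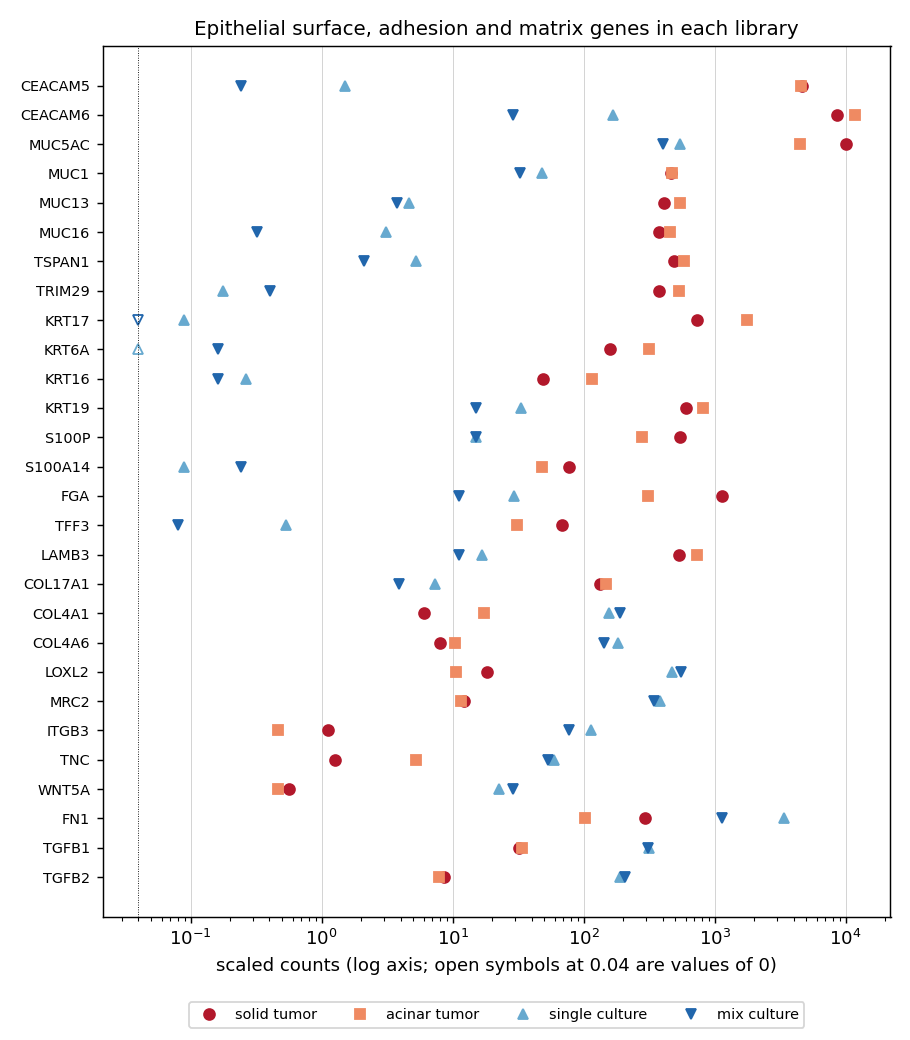
Scaled counts (log axis) of genes of the epithelial surface, adhesion, matrix and TGF-β groups in each library, with tumors in red shades and cultures in blue shades. From CEACAM5 to COL17A1 both tumors lie to the right of both cultures, and from COL4A1 to TGFB2 both lie to the left; open symbols at 0.04 are values of 0.

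Genes of gastrointestinal and liver lineages were also higher in the tumors, and here the solid tumor led. Of 36 measured, 16 (44.4%) were higher and 2 lower, with a median of 1.31. Between the tumors the list's median log2 ratio of acinar to solid was -0.73. The 3 fibrinogen chains, clotting proteins made by the liver, were at 1128, 308, 29.4 and 11.2 for FGA, 605, 157, 14.3 and 1.85 for FGB and 718, 188, 9.42 and 2.33 for FGG. Their closest libraries, acinar tumor and single culture, were 10.5, 10.9 and 19.9-fold apart. TFF1 and TFF3, trefoil peptides secreted with mucus, were at 110.3, 35.4, 1.16 and 1.05 and at 68.4, 31.01, 0.533 and 0.0805. Intestinal cells also express CDH17 (an adhesion cadherin, 76.2, 40.6, 2.04 and 0.725), VIL1 (the microvillus protein villin, 23.9, 13.95, 1.16 and 0.161) and LGALS4 (a galectin, 65.03, 21.9, 0.711 and 0.403). All 3 were at 2.04 or less in the cultures. CPS1, the first enzyme of the urea cycle, was at 171, 103, 20.4 and 20.3 (5.04-fold, 4.33 to 5.88). The exceptions were the apolipoproteins APOE, at 2.24, 1.24, 11.6 and 13.9, and APOC1, at 6.85, 5.12, 15.1 and 18.04. Of 14 measured lung lineage genes, 2 were higher (MUC1 and SFTPD, 14.3% against 9.67% of all genes) and none lower. NKX2-1, the lung lineage transcription factor, was at 0, 0.155, 0 and 0, which is within the 3-fragment limit in every library.

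Several secreted protease inhibitors and defence proteins were higher. Proteases and inhibitors as a list went both ways, with 9 of 35 (25.7%) higher and 5 (14.3%) lower. Over all genes these shares were 9.67% and 8.22%. CST1, a cystatin with near-identical family members, was at 692, 279, 1.24 and 0.483 (224-fold, 133 to 411). SERPINA1 and SERPINA3, inhibitors of elastase and of cathepsin G, were at 113, 33.6, 2.22 and 1.37 and at 208, 218, 26.8 and 18.1. SLPI, an elastase inhibitor of mucosal fluids, was at 297, 179, 28.6 and 16.4 (6.26-fold), and MMP7, an epithelial matrix metalloprotease, at 95.4, 131, 12 and 4.27 (7.95-fold). LCN2, an iron-sequestering lipocalin, was at 447, 485, 9.15 and 1.05 (48.8-fold, 40.1 to 59.98). Of 23 measured complement and coagulation genes, 7 (30.4%) were higher and 2 lower. CD55, which breaks up complement convertases, was at 547, 688, 116 and 141 (3.88-fold, 3.67 to 4.11), and THBD, thrombomodulin, at 79.9, 136, 13.5 and 26.3. Both protease-activated receptors on the list were lower, F2R at 10.8, 14.1, 62.5 and 99.1 and F2RL1 at 62.4, 57.1, 166 and 280.3.

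Mitotic genes were lower in both tumors almost without exception. Of 34 measured, 32 (94.1%) were lower, against 8.22% of all genes, and none higher, with a median of -2.06. MKI67, the Ki-67 antigen of cycling cells, was at 59.4, 59.8, 332 and 394 (5.55-fold, 4.997 to 6.18). TOP2A, the topoisomerase that untangles replicated chromosomes, was at 64.6, 66.7, 461 and 641 (6.91-fold, 6.26 to 7.64). The 2 tumors differed little on both genes, and the mix culture lay above the single culture. CCNB1, which activates CDK1 at mitotic entry, was at 33.1, 32.4, 136 and 175 (4.11-fold), and CCNB2 at 19.02, 18.5, 56.7 and 76.2 (2.98-fold). CDC20, the activator of the anaphase-promoting complex, was at 13.01, 9.61, 57.9 and 89.2 (4.46-fold). PLK1, a mitotic kinase, was at 22.2, 15.3, 94.8 and 154 (4.26-fold). CCNB1 has no TTTGAA in the window printed above, and PLK1 and CDC20, at 4.26 and 4.46-fold beside its 4.11-fold, have it. Only the letters TTTGAA were searched as the CHR element, so other forms of it were not counted. The part of the element in these gaps was not tested. The 2 members short of 2-fold were CKS2, at 25.7, 31.6, 61.9 and 74.6, and BUB3, at 147, 153, 157 and 168, the latter nearly level across libraries. With the length trend removed the median was -2.06.

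Genes of S phase were lower by less. Of 34 measured, 12 (35.3%) passed 2-fold lower, against 8.22% of all genes, and none higher. By some amount 33 lay below both cultures, as did 38.7% of all genes. The median was -1.25. MCM10, a replication initiation factor, was at 4.75, 4.96, 26.7 and 46.2 (5.37-fold, 3.73 to 8.0), and RRM2, the regulated subunit of ribonucleotide reductase, at 28.7, 24.2, 100.4 and 151 (3.503-fold). The origin licensing factors CDC6 and ORC1 gave 3.496 and 3.95-fold. PCNA, the sliding clamp of DNA polymerase, was at 163, 157, 213 and 301 and TK1, thymidine kinase, at 77.9, 83.3, 91.8 and 129, both short of 2-fold. In the promoters of these genes the E2F-type letters TTTNNCGC were in 13 of 30 matched (43.3%), against 5.93% of all promoters and 8.86% of those of genes compared, over the same 250 bases and both strands. All 9 measured replication-dependent histone genes lay below both cultures, against 38.7% of all genes. Past 2-fold was 1 of them (11.1%, near the 8.22% of all genes), HIST1H4H, at 0.2797, 0, 12.2 and 5.88. With a pseudocount of 0.1 in place of 1, 6 of the 9 passed 2-fold. Their transcripts are short (median 950.0 bases), and their median of -1.09 became -1.52 with the length trend removed, when 7 passed.

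Ribosomal protein genes and the genes that build ribosomes lay on opposite sides. All 32 measured ribosomal protein genes were above both cultures, against 39.8% of all genes. Only 4 (12.5%, close to the 9.67% of all genes) passed 2-fold. The list median was 0.89, and 0.62 with the length trend removed. The longest annotated transcripts of these genes had a median of 1917 bases, and the transcripts expressed may be shorter. RPS19 was at 2265, 1992, 930.1 and 937, RPL35 at 893, 761, 292 and 349.8 and RPLP0 at 1151, 894, 425 and 444. The solid tumor was the highest library for each of these 3, and ribosomal proteins have many processed pseudogenes that can take their fragments. Of 29 ribosome biogenesis genes, 7 were lower (24.1%) and none higher, with a median of -0.77. POLR1A, the large subunit of RNA polymerase I, was at 14.3, 12.4, 87.5 and 89.5 (6.13-fold, 4.996 to 7.59), and NCL, the nucleolar protein nucleolin, at 316, 262, 673 and 914 (2.13-fold).

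**Figure D4:**
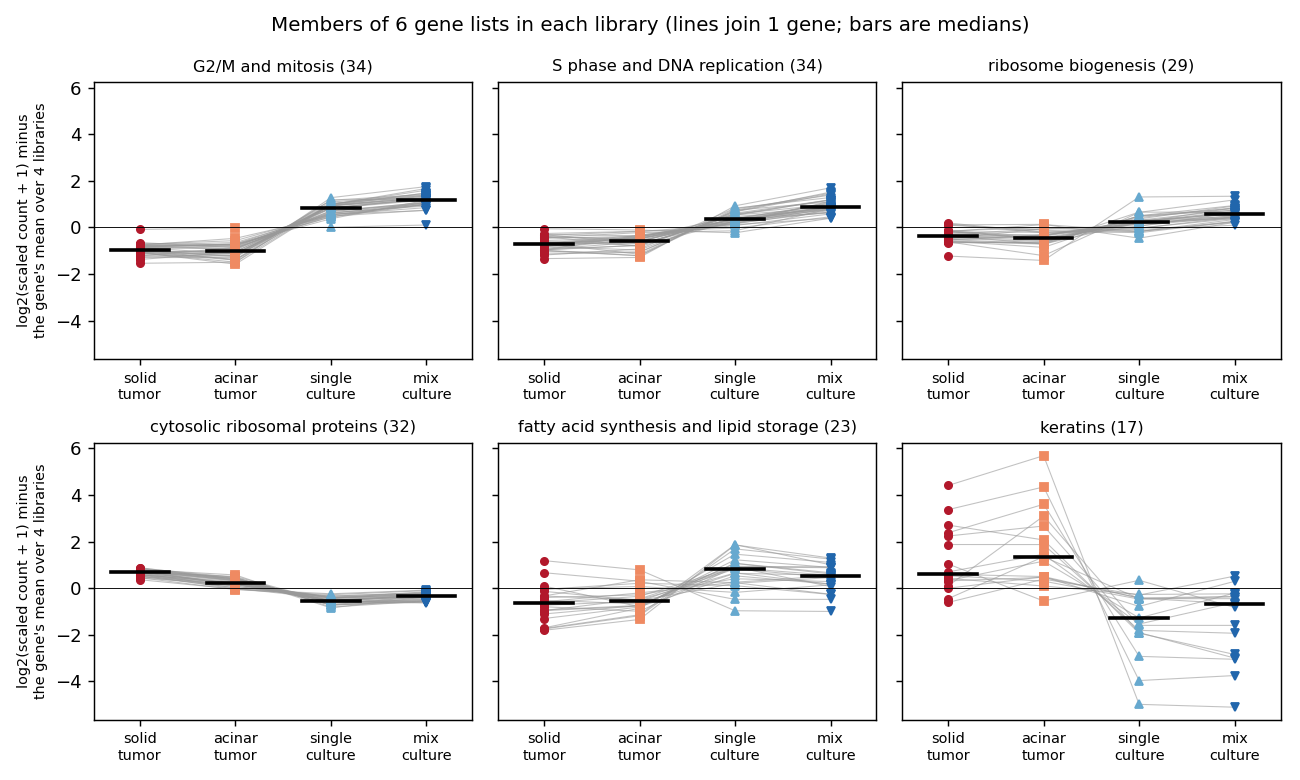
For the 6 gene lists shown, each measured gene's log2(scaled count + 1) minus its own mean over the 4 libraries; grey lines join 1 gene and black bars are list medians. Mitotic, S phase, ribosome biogenesis and fatty acid genes lie mostly higher in the cultures, ribosomal proteins and keratins mostly higher in the tumors.

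Long noncoding RNAs on the list, several of them hosts of small nucleolar RNAs, were higher in 9 of 18 (50%) and lower in 1. NEAT1, the scaffold of paraspeckles, was at 2660.4, 1824, 509.8 and 341, and MALAT1, a nuclear-retained RNA, at 739, 942, 283 and 139 (2.61-fold, 2.501 to 2.73). The snoRNA hosts GAS5 and ZFAS1 were at 156, 96.7, 30.3 and 33.9 and at 411, 317, 94.4 and 84.6. OIP5-AS1 was lower, at 13.4, 12.2, 34.7 and 39.4. NEAT1 and MALAT1 have long transcripts (22743 and 8708 bases), GAS5 and ZFAS1 short ones (1698 and 1075), and the list median was 1.27, or 1.09 with the length trend removed.

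The TGF-β ligand genes TGFB1 and TGFB2 were lower in both tumors. TGFB1 was at 32.02, 33.6, 315 and 308 (9.17-fold, 7.99 to 10.6), with the tumors and the cultures each nearly level. TGFB2 was at 8.56, 7.85, 189 and 208, 22.1-fold apart with fractional fragments. TGF-β targets went both ways. Of 34 measured, 7 (20.6%) were higher and 5 (14.7%) lower, against 9.67% and 8.22% of all genes, with a median of -0.22. Whether target levels depend on the ligand levels was not tested. TGFBI, a matrix protein induced by TGF-β, was at 418, 503, 669 and 909, lower by 1.33-fold and short of the 2-fold limit. IL11, PMEPA1 and CDKN1A overlapped between the settings, SMAD7 lay at 11.3, 14.7, 4.44 and 8.29, and FSTL3, a secreted activin antagonist, was higher at 974, 1718, 93.1 and 191 (5.097-fold).

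Of 25 measured mesenchymal genes of the epithelial-mesenchymal transition, 9 (36%) were lower and 1 higher. WNT5A, a ligand of noncanonical Wnt signalling, was at 0.559, 0.465, 22.8 and 29.1 (40.7-fold, 15.7 to 150.4). TNC, the matrix glycoprotein tenascin-C, was at 1.26, 5.27, 59.3 and 53.1 (10.1-fold), and SPARC, another matrix glycoprotein, at 19.02, 18.5, 118 and 107 (5.61-fold). FN1, fibronectin, was at 292, 102, 3394 and 1136 (3.896-fold, 3.72 to 4.08). LOXL2, a collagen cross-linking enzyme, was at 18.3, 10.5, 474 and 553, 25.9-fold apart with fractional fragments. The transcription factors SNAI2 and TWIST1 were lower from low levels, TWIST1 at 2.098, 2.02, 10.04 and 6.92. VIM, the mesenchymal filament vimentin, went the other way at 2135, 1943, 886 and 1216, above both cultures but short of 2-fold. The higher member was S100A4, given above with its family. With a pseudocount of 0.1, 3 members were higher.

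Basement membrane genes differed in both directions. Of 31 measured, 6 (19.4%) were higher and 8 (25.8%) lower, against 9.67% and 8.22% of all genes. LAMB3, which encodes a laminin chain of epithelial basement membranes, was at 537, 733, 16.9 and 11.1 (31.8-fold, 27.5 to 37.01). COL17A1, the hemidesmosomal collagen, was at 134, 147, 7.29 and 3.86 (18.4-fold), and ITGB8, an integrin that binds latent TGF-β, at 41.7, 73.2, 2.58 and 1.61 (16.2-fold). Type IV collagens and their binding partners lay on the other side. COL4A1 was at 6.01, 17.2, 157 and 189 (9.104-fold, 7.51 to 11.1), COL4A6 at 7.97, 10.4, 182 and 142 (13.7-fold), and NID1, the linker nidogen-1, at 0.699, 0.465, 9.95 and 14.7. ITGA2 and ITGB1, which pair as a collagen receptor, were at 25.5, 31.2, 175 and 153 (4.92-fold) and 417, 432, 1673 and 1762 (3.87-fold). Long transcripts prevail in the list (median 6494 bases), and its median of -0.52 became -0.14 with the length trend removed. LAMB3 (4305 bases) and COL17A1 (5689) are themselves longer than the median gene.

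Further adhesion and matrix genes were among the most strongly lower. MRC2, a collagen uptake receptor, was at 12.3, 11.6, 380.0 and 344 (27.9-fold, 22.6 to 34.9), and ITGB3, the integrin β3 chain, at 1.12, 0.465, 114 and 76.6 (68.5-fold, 34.6 to 159). TENM2, a teneurin adhesion protein, was at 0.839, 0.9303, 102 and 188 (110.0-fold, 50.4 to 300.3), and ADAM12, a membrane metalloprotease, at 2.66, 4.34, 84.3 and 73.8 (16.99-fold). DMBT1, a scavenger receptor cysteine-rich glycoprotein of mucosal surfaces, was at 8.81, 11.2, 3826 and 1489, 133-fold apart with fractional fragments. It ran against most of the mucosal genes given above. Of 10 measured collagens outside the basement membrane, 4 (40%) were lower, against 8.22% of all genes. They included COL13A1, a transmembrane collagen (0, 0.155, 65.5 and 42.7), and COL5A2 (103, 88.7, 493 and 564). COL1A1 did not pass 2-fold, at 32.3, 30.7, 19.3 and 29.5, and COL3A1 was near the detection limit. These collagens have long transcripts (median 6232 bases), and the list median of -1.18 became -0.80 with the length trend removed.

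Many lipid synthesis genes were lower in both tumors. Of 23 measured fatty acid and lipid storage genes, 12 (52.2%) were lower and 1 higher, with a median of -1.20. FASN, fatty acid synthase, was at 134, 199.9, 1466 and 1081 (5.41-fold, 5.11 to 5.73), and ACLY, which supplies cytosolic acetyl-CoA, at 363, 466, 1496 and 1476 (3.17-fold). SCD and FADS2, fatty acid desaturases, were at 573, 864, 6951 and 3814 and at 287, 517, 2581 and 2015, with fractional fragments in both. ELOVL6, a fatty acid elongase, gave 6.87-fold (5.17 to 9.33). The higher member was AGPAT2, an acyltransferase of glycerolipid synthesis, at 320.2, 243, 71.4 and 69.9. Cholesterol synthesis genes were lower past 2-fold in 2 of 26, near the 8.22% of all genes. By any amount, 16 lay below both cultures and 2 above. Their median was -0.65, and their levels summed to 1731, 3061, 4028 and 3503. Between the tumors their median log2 ratio of acinar to solid was 0.90. Removing the length trend left the fatty acid median at -1.28, although FASN has a long transcript (8565 bases).

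Sugar and redox genes were mixed. TKT, a transketolase of the pentose phosphate pathway, was at 724, 665, 1855 and 1901. It is on the list of NRF2 targets, of which 8 of 37 (21.6%) were lower and 4 (10.8%) higher, the latter near the 9.67% of all genes. GPX2, a glutathione peroxidase of epithelia, was the strongest of the higher ones at 2265, 3235, 221 and 61.1 (10.3-fold, 9.84 to 10.7). Glycolysis genes had 3 of 20 (15%) lower (ALDOC, PFKM and PGAM1), against 8.22% of all genes, with a median of -0.66. GAPDH overlapped at 8306, 5592, 7625 and 6847. Hypoxia-induced genes had 2 of 29 lower (STC1 and STC2), which at 6.90% is near the 8.22% of all genes, and none higher. TXNIP, an arrestin-family protein that limits glucose uptake, was far higher, at 141, 144, 3.82 and 1.29 (36.99-fold, 27.3 to 51.4). The serine synthesis enzymes PHGDH, PSAT1 and PSPH were all lower, PSAT1 at 12.6, 8.84, 124 and 169 (9.89-fold, 7.98 to 12.4) and PHGDH at 2.66, 0.775, 21.6 and 37.04. TFRC, the transferrin receptor, was at 45.3, 48.8, 287 and 249.8 (5.12-fold, 4.55 to 5.76).

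Stress and immediate early genes did not share a direction. Of 32 measured immediate early genes, 9 (28.1%) were higher and 5 (15.6%) lower, against 9.67% and 8.22% of all genes. ATF3, a stress-induced transcription factor, was at 21.96, 26.5, 1.33 and 1.29 (16.5-fold, 9.69 to 30.1). KLF4, a zinc finger factor of epithelial differentiation, was at 173, 276, 16.8 and 14.6 (10.3-fold), and JUN at 149, 186, 22.9 and 42.6 (3.49-fold). FOSB and EGR1, factors that growth factors induce fast, were lower, at 3.496, 3.26, 31.5 and 58.4 (8.999-fold) and 20.6, 7.29, 101 and 313 (4.92-fold), and FOS was at 108, 28.99, 334 and 670.3. On the list, JUN, JUND, KLF2, KLF4 and KLF6 were thus higher in the dissected tumors, and FOS, FOSB, FOSL1, FOSL2 and EGR1 in the sorted cultures. The part of dissection or sorting in these values was not tested. DDIT3, a factor of the integrated stress response, was higher at 31.6, 26.7, 6.31 and 5.72, while the endoplasmic reticulum chaperones HYOU1 and PDIA4 were lower, at 133, 105, 341 and 296 and 334, 221, 885 and 733.

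Interferon-stimulated genes had 7 of 43 higher (16.3%) and 2 lower (4.65%), against 9.67% and 8.22% of all genes, with a median of 0.42. By any amount, 25 lay above both cultures and 9 below. Their levels summed to 2025, 2066, 2068 and 1764, so the sums of tumors and cultures overlapped. OAS1, an antiviral RNA sensor, was at 217, 361, 29.1 and 31.2 (6.95-fold, 6.22 to 7.79), IFI27 at 14.5, 24.2, 1.87 and 0.242 and IRF7 at 33.6, 31.5, 4.09 and 7.17. The lower members were EIF2AK2, at 10.6, 14.6, 43.99 and 41.2, and UBE2L6, at 13.01, 5.43, 36.5 and 32.3. HLA-E, a nonclassical class I molecule, was at 328, 341, 111 and 89.7 (2.94-fold, 2.75 to 3.16). HLA-B, HLA-C and B2M were each above both cultures without passing 2-fold, B2M at 595, 631, 449 and 319. HLA-DRA of class II went the other way, at 0.839, 0, 8.53 and 7.005. Among NF-κB genes, 5 of 34 (14.7%) were higher and 3 (8.82%) lower, the latter near the 8.22% of all genes. IL32, a cytokine, was higher at 34.96, 113, 0.444 and 0.564. PTGS2, the inducible cyclooxygenase, was lower at 35.5, 78.3, 345 and 307.

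Receptors and ligands of growth signalling were likewise divided. EGFR was at 20.3, 15.3, 134 and 151, 6.62-fold lower with fractional fragments, and its partner receptor ERBB3 at 108, 64.2, 9.69 and 11.2, 5.74-fold higher (4.72 to 7.002). INSR, the insulin receptor, was at 35.8, 32.7, 9.15 and 10.9, higher, and IRS1, the adaptor below it, at 46.6, 41.7, 216 and 213, lower. BMP6 was higher at 42.9, 97.02, 1.27 and 1.56 with fractional fragments, and BMP4 lower at 19.9, 19.1, 70.9 and 46.5. Of 33 Wnt and Notch genes, 8 (24.2%) were lower and 4 (12.1%) higher, against 8.22% and 9.67% of all genes. LFNG, which modifies Notch receptors with sugar, was at 118, 176, 28.3 and 18.04. Wnt feedback genes went both ways, ZNRF3 and NKD1 being lower at 23.4, 22.5, 81.7 and 76.1 and 3.22, 4.19, 21.2 and 23.3, and RNF43 higher at 119, 180.1, 54.9 and 36.6 (2.17-fold, with fractional fragments). PEG10, an imprinted gene derived from a retrotransposon, was at 57.8, 48.4, 352 and 455 (6.1-fold, 5.51 to 6.77).

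**Figure D5:**
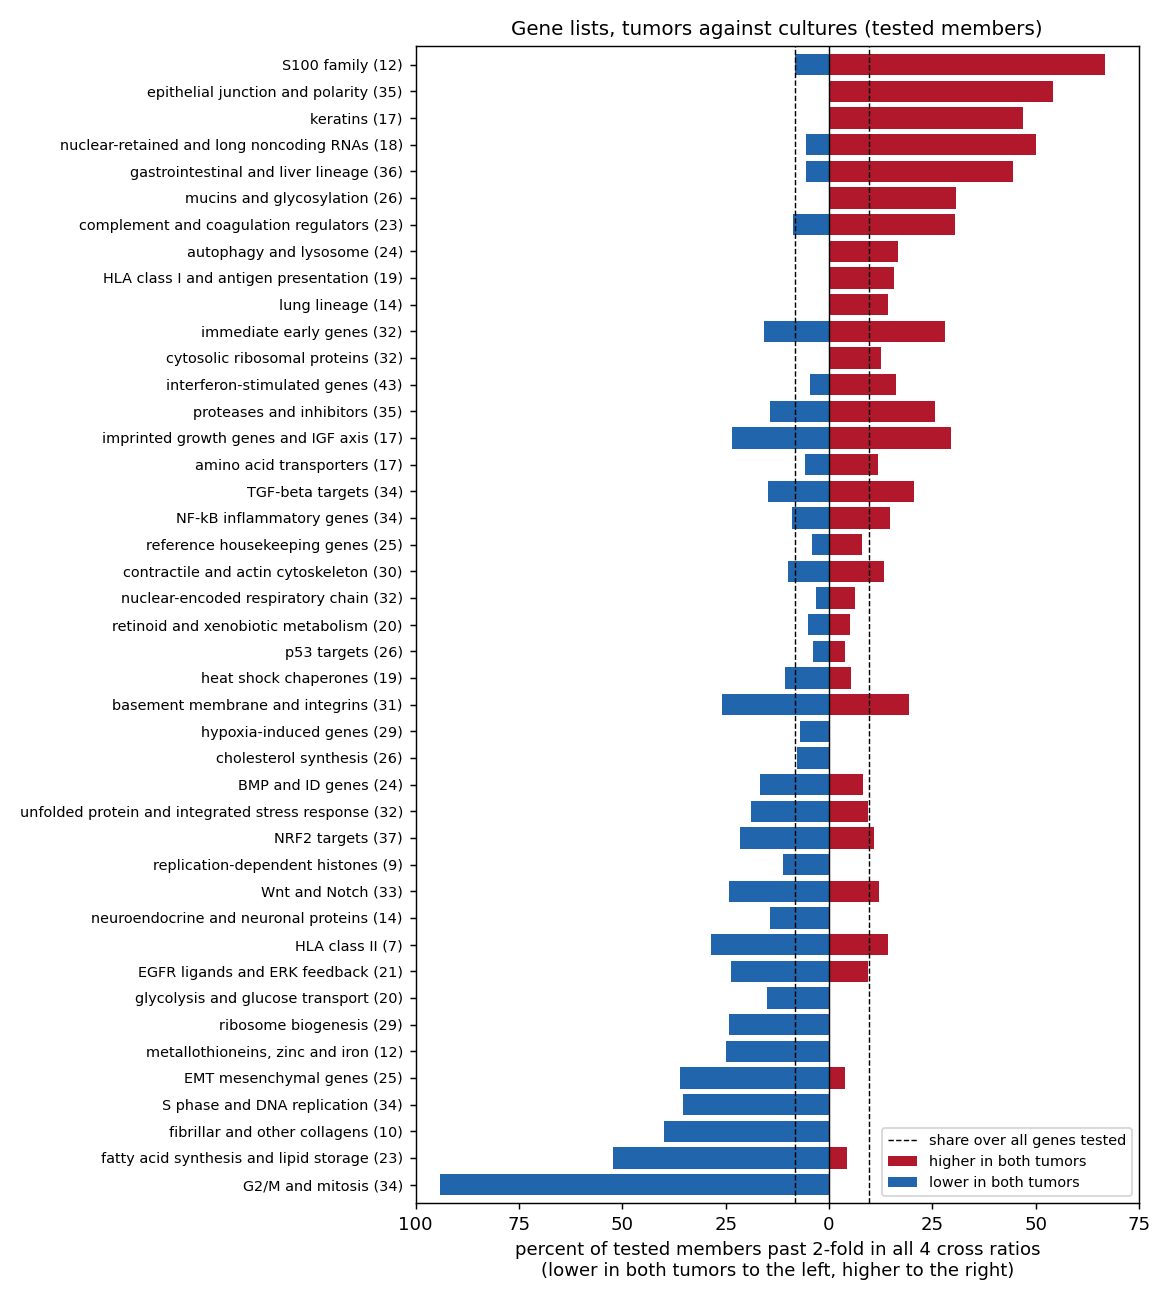
Percent of the measured members of each gene list that were past 2-fold higher (red, to the right) or lower (blue, to the left) in both tumors, with dashed lines at the 9.67% and 8.22% of all genes. S100, junction and noncoding RNA genes have the longest bars to the right, mitotic and fatty acid genes to the left; lists share some members.

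Genes listed at 0 in both libraries of one setting give only lower bounds, taken against 3 fragments in each library. 24 genes were at 0 in both cultures and at 3 or more scaled counts in both tumors. MFAP5, a microfibril protein of elastic matrix, was at 225, 563, 0 and 0, at least 844-fold higher. F5, coagulation factor V, was at 88.9, 30.1, 0 and 0 (at least 113-fold), and PIP, a secreted protein of exocrine glands, at 54.1, 24.96, 0 and 0 (at least 93.6-fold). TMPRSS4, a transmembrane serine protease, was at 18.04, 16.4, 0 and 0, and MUC17, a membrane mucin of the gut, at 14.7, 23.7, 0 and 0. SLAMF9 and SH2D1B, known from leukocytes, were at 39.4, 55.5, 0 and 0 and at 15.9, 19.5, 0 and 0; the values of the leukocyte markers are given above. LUM, a matrix proteoglycan, had 1 fragment in the mix culture and was at 19.6, 55.4, 0 and 0.0805 (243-fold, 42.9 to 9672). MFAP5 and LUM are also on the list of fibroblast markers given above. In the opposite direction 16 genes were at 0 in both tumors. SLC1A3, a glutamate transporter, was at 0, 0, 60.4 and 37.7, at least 81.01-fold lower. FLRT2, NTRK2 (the receptor TrkB) and SFRP5 (a secreted Wnt antagonist) were at 0, 0, 10.8 and 7.49, at 0, 0, 6.399 and 7.65 and at 0, 0, 8.09 and 5.96.

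Some lists had smaller shares than the 9.67% higher and 8.22% lower of all genes in both directions. Nuclear-encoded respiratory chain genes had 2 of 32 higher and 1 lower, with a median of 0.03. Their transcripts are short (median 1800.5 bases), and the list median became -0.23 with the length trend removed. Among p53 targets 1 of 26 was higher (BBC3, 46.3, 70.5, 13.7 and 11.1) and 1 lower (PLK2, 37.2, 40.6, 212 and 167). Reference housekeeping genes had 2 of 25 higher and 1 lower, and ACTB overlapped at 3619, 5791, 3754 and 4682. Autophagy and lysosome genes were above the background on the higher side, with 4 of 24 higher (16.7%) and none lower, although their median was 0.13.

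Some called genes were nearly constant inside each setting. VPS28, a sorting protein of the ESCRT-I complex, was at 216, 219, 75.1 and 74.2 (2.88-fold, 2.65 to 3.14), and MRPL55, a mitochondrial ribosomal protein, at 93, 93.03, 34.9 and 35.7 (2.61-fold, 2.31 to 2.95). Lower with equally little spread were CDK12, a kinase of RNA polymerase II, at 46.6, 45.9, 114 and 115, and ARID1A, a chromatin remodelling subunit, at 53.1, 51.8, 127 and 131. For genes higher in the tumors, the culture nearest to them was the single culture in 846, the mix culture in 508 and either in 54. For genes lower in the tumors the nearest culture was the single culture in 630 and the mix culture in 567. Just inside the 2-fold limit lay TMEM42 (35.4, 28.2, 11.1 and 13.6) and UQCR11 (206, 213, 102 and 94.4), and just outside it COX6A1 (210.2, 224, 105 and 95.9). On the lower side NCBP1 (45.1, 42.6, 91.2 and 109.7) was just inside and FGFR1 (39.2, 32.9, 113 and 79.2) just outside.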

How the data were processed

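RNA-seq of A549 cells was analysed in 4 libraries, 1 per group, with groups taken from the sample titles. Per the submitters' processing notes, the build was hg19 and the tools included Cuffdiff 2.2.1, SAMtools 1.0, TopHat2 2.0.13 and Bowtie2 2.2.3. The annotation, strand setting and read filters were not given in the sources used here. For each gene and library the authors deposited 1 signal value, a normalised fragment count: 90.0% to 91.2% of values above 0 were whole multiples, within 0.05, of the value of 1 fragment. Because the rest were fractional, no count model was fitted. Values were divided by 8.94 in all libraries, which keeps the authors' scaling. Overlapping, antisense and near-identical genes can share fragments. Depth ran from 6630000 to 12180000 fragments, and floors stand for 3 fragments.

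Ratios used a pseudocount of 1 and genes at 1 or more in at least 1 library. Genes at or past 2-fold in all 4 tumor-to-culture ratios were counted and set beside the shares over all genes; no test across samples was run, since each group is 1 library and the 2 tumor and the 2 culture libraries are different groups. The 43 gene lists and 7 marker lists (1211 of 1217 symbols in the table), and the genes chosen, were set with earlier results of these data known. The rule for named genes takes the 25 highest and 25 lowest smallest ratios (small RNA, LOC, LINC and open reading frame symbols left out), up to 4 members per list and direction, 14 key genes, up to 8 genes at 0 in 1 setting, the 5 nearest the limit on each side and the 6 with the least within-setting spread. Other list members were named after their values were seen, as examples or exceptions. Transcript lengths came from GENCODE and promoters from RefSeq GRCh38.p14, matched by symbol, so these may differ from the hg19 genes counted. The counting of genes past the limit was tested on simulated data. Alternatives were other pseudocounts, filters, scalings and limits, leaving out 1 library, whole-fragment genes only, and removal of the length trend, which was chosen after seeing the data. Python 3.11.15, pandas 2.3.3 and SciPy 1.17.1 were used.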

Additional observations from a re-analysis of the deposited data

How the results depend on the processing

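In the alternative runs, no named gene past 2-fold changed sign. Nor did any of the larger list medians that lay on 1 side in all 4 tumor-to-culture pairs. Smaller medians could, such as that of the insulin-like growth factor axis, from -0.20 to 0.19 with the length trend removed. The 4-fold limit changes no ratio and was left out of this check. The counts of genes past 2-fold moved by more than 1.5 times in these settings: with a pseudocount of 5 they were 864 higher and 774 lower, and at the 4-fold limit 390 and 279. Leaving out 1 library at a time gave 1681 to 1924 higher and 1516 to 1591 lower, where fewer ratios had to pass the limit. The other settings stayed within 1.5 times of the 1408 and 1197 reported. Among these, equal library totals turned the balance of calls from 54.0% to 49.7% higher (1299 higher, 1313 lower) and shifted the median of all genes by -0.06 (log2). With a pseudocount of 0.1, the members past 2-fold became 6 lower for replication-dependent histones, 4 lower for HLA class II, 1 lower for mucins, and 3, 2, 4 and 2 higher for mesenchymal genes, neuroendocrine genes, fibroblast markers and keratinocyte markers. With the length trend removed, 1312 genes were higher and 1103 lower, of which 1143 and 970 were among those reported, and 244 of the 271 named genes past 2-fold with a known length kept their call. No paired analysis was possible because each group is 1 library. Counting error limits genes below about 1 scaled count, more in the tumors than in the cultures. Depth cannot replace replicates: differences between animals, cultures or preparations are not measured here.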

Other observations

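Further gene groups are given here beside the background of 9.67% higher and 8.22% lower. Growth genes of the insulin-like growth factor axis, with imprinted genes, had 5 of 17 higher and 4 lower. Their median of -0.20 became 0.19 with the length trend removed (median transcript 5585 bases). The binding proteins IGFBP6 and IGFBP7 were higher, at 318, 370.1, 93.3 and 80.4 and at 44.9, 96.2, 2.402 and 6.28, and IGFBP4 was lower, at 2804, 2597, 5905 and 7114. CDKN1C, an imprinted inhibitor of cyclin-dependent kinases, was higher at 27.5, 58.3, 4.98 and 2.58 (5.54-fold, 4.09 to 7.59). Of 20 retinoid and xenobiotic genes, 1 was higher and 1 lower. These were the drug-metabolising cytochromes CYP3A5, at 259.8, 199, 12.9 and 2.17 (15.4-fold, 12.97 to 18.4), and CYP1B1, at 10.1, 6.05, 101 and 75.2 (7.47-fold, 5.87 to 9.63). Among 17 amino acid transporters, SLC7A7 and SLC6A14 were higher, at 106, 104, 5.95 and 7.41 and at 25.3, 21.2, 1.16 and 0.161, and SLC1A3, given above, was lower. ALOX5, which starts leukotriene synthesis, was at 110.3, 94.7, 0.356 and 0.0805 (266-fold, 104 to 981).

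Of 35 proteases and inhibitors, 9 were higher and 5 lower, the lower ones being the metalloproteases ADAM12, ADAM19, ADAM17, ADAMTS9 and MMP2. MMP2, a gelatinase, was at 4.61, 21.9, 113 and 102 (4.68-fold, 3.93 to 5.62), and TIMP3, a metalloprotease inhibitor, was higher at 16.6, 13.5, 0 and 0.0805. Contractile and actin genes had 4 of 30 higher and 3 lower. Metallothionein, zinc and iron genes had 3 of 12 lower (25%) and none higher, with a median of -0.85, and the neuroendocrine and neuronal genes 2 of 14 lower (SCG2 and VGF). Heat shock chaperones had 1 of 19 higher (CRYAB, 9.09, 18.9, 0 and 0.322) and 2 lower, and stress response genes of the endoplasmic reticulum 3 and 6 of 32. HLA class I genes had 3 of 19 higher and none lower, and class II 1 higher and 2 lower of 7. BMP and ID genes had 2 higher and 4 lower of 24, and EGFR ligands and ERK feedback genes 2 and 5 of 21. The markers of muscle and fat summed to 33.3, 21.8, 14.2 and 10.98, and those of skin keratinocytes to 127, 133, 80.3 and 78.03.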
